A study of Mus musculus with 2 samples.

Results

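Pericentral Wnt target genes were read in 1 library labelled SRSF2-/- and 1 library labelled WT, each from the liver of BALB/c mice 11 days after birth. SRSF2 is a serine/arginine-rich splicing factor that recognises exons, and the series describes its loss as liver specific. The sources used here do not name the driver of the deletion, the part of the gene removed or the number of animals behind each library. The group is made of 10 genes, chosen by name as hepatocyte genes around the central vein that depend on beta-catenin, together with feedback genes of the Wnt pathway. They are Cyp2e1, Cyp1a2, Glul, Oat, Slc1a2, Tbx3, Axin2, Lgr5, Rnf43 and Znrf3, out of 26440 genes in the tables. All 10 were found, each on 1 RefSeq accession, and all 10 passed the filter of at least 1 FPKM in either library.

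Hepatocytes of the liver lobule differ by their place between the portal tract and the central vein. Wnt ligands and R-spondins made by endothelial cells at the central vein act on the nearest hepatocytes, where beta-catenin is protected from its destruction complex and works with TCF/LEF factors in the nucleus. Genes switched on there serve glutamine synthesis and drug metabolism, while other target genes feed back on the pathway. In newborn mice this zonation is still being set up.

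Levels are given in FPKM, read numbers divided by transcript length and library size, which can be compared between genes. Each genotype had 1 library, so there was neither a replicate nor a test. Intervals are exact 95% intervals of the read counts (Poisson for a level, Clopper-Pearson for a ratio) and cover counting error only, not the spread between animals. Log2 ratios are log2((SRSF2-/- FPKM + 1) / (WT FPKM + 1)), and a gene is called higher or lower when this value reaches 2-fold.

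The SRSF2-/- library held 22111605 reads and the WT library 22407743. Srsf2 itself had 832 reads (11.8 FPKM) in the SRSF2-/- library and 1998 reads (27.9 FPKM) in the WT library, a ratio of 0.421 (0.388 to 0.457). The whole distribution of ratios was shifted. The median log2 ratio of the 12477 tested genes was 0.55, and the 20 most abundant genes took 21.5% of the SRSF2-/- reads and 37.5% of the WT reads. For this reason each ratio is also given relative to that median. The libraries differed in sex-linked transcripts too, with 6 Xist reads in the SRSF2-/- library and 13004 in the WT library, and 859 against 0 reads of the Y-linked gene Ddx3y, so that genotype and sex cannot be told apart.

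The group did not move as one. Cyp2e1, Cyp1a2 and Slc1a2 were lower in the SRSF2-/- library by 3.41- to 4.38-fold, and Oat was 2.92-fold higher. Glul was 1.42-fold lower, and Tbx3, Axin2, Lgr5, Rnf43 and Znrf3 lay within 1.5-fold of their WT level. By the 2-fold rule 3 of the 10 genes were lower, against 2.95% of all tested genes, and 1 was higher, against 19.2% of all tested genes. The median log2 ratio of the 10 genes was -0.06, that is -0.61 relative to all tested genes. After centring on the median of all tested genes 4 of the 10 were lower, Glul being added, against 6.66% of all tested genes, and 0 were higher, against 5.67%.

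Together the 10 genes took 46372 reads of the SRSF2-/- library, 0.210% of the total (0.208% to 0.212%), and 116697 reads of the WT library, 0.521% (0.518% to 0.524%). Cyp2e1 made up 55.9% of these reads in the SRSF2-/- library and 76.7% in the WT library. In bulk RNA fewer cells of a type and less RNA per cell cannot be told apart.

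**Figure D1:**
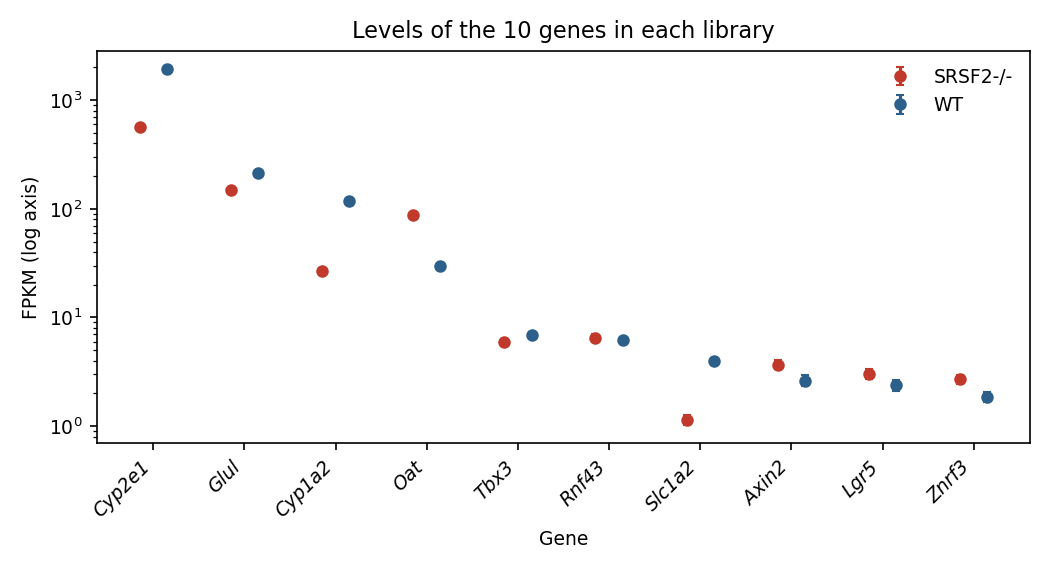
Level of each of the 10 genes in FPKM on a log axis, in the SRSF2-/- library (left point of each pair) and the WT library (right point). Bars are exact 95% Poisson intervals of the read count, often smaller than the point. The genes run from 1938 FPKM (Cyp2e1, WT) to 1.14 FPKM (Slc1a2, SRSF2-/-), and Oat is the gene among the 4 most abundant that is higher in the SRSF2-/- library.

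The 2 cytochrome P450 genes among the 10 were both lower in the SRSF2-/- library. Cyp2e1, whose product oxidises ethanol, acetaminophen and other small molecules, had 25929 reads and 568 FPKM (562 to 575) in the SRSF2-/- library, against 89452 reads and 1938 FPKM (1925 to 1951) in the WT library. It was 3.41-fold lower (3.36 to 3.46), a log2 ratio of -1.77 and thus -2.32 relative to all tested genes. Cyp1a2, which oxidises caffeine and aromatic amines and is also induced through the aryl hydrocarbon receptor, had 1328 reads and 26.8 FPKM (25.4 to 28.3) in the SRSF2-/- library, against 5883 reads and 117 FPKM (114 to 120.2) in the WT library. It was 4.38-fold lower (4.12 to 4.65), with a log2 ratio of -2.09 and thus -2.64 relative to all tested genes. Of the 12477 tested genes, 83 had a lower log2 ratio than Cyp1a2 and 129 a lower one than Cyp2e1.

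Promoter sequences of RefSeq (GRCm38.p6) matched 7 of the 10 genes. Bases upstream of the start site are shown for the 3 genes called lower and the 1 called higher. Each stretch begins 250 bases upstream and ends where the window first meets an exon that GENCODE M21 annotates. The stretches of Cyp2e1, Cyp1a2 and Slc1a2 therefore stop short of the start site, after 170, 202 and 168 bases. The deposited tables use mm9 and hold no coordinates, so these positions belong to the RefSeq table alone. Capitals mark matches on either strand to CTTTGAT, a TCF/LEF motif, or to its shorter core CTTTG, which was added after the sequences were seen.
Cyp2e1, plus strand, chr7:140763569-140763738: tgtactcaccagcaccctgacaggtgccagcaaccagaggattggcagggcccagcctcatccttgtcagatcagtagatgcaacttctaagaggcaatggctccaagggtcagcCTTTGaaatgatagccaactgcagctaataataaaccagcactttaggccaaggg
Cyp1a2, minus strand, chr9:57683704-57683905: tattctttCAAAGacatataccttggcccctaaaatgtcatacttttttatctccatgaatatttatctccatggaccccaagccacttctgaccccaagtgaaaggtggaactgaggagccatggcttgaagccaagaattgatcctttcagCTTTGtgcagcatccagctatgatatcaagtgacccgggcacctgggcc
Slc1a2, plus strand, chr2:102706188-102706355: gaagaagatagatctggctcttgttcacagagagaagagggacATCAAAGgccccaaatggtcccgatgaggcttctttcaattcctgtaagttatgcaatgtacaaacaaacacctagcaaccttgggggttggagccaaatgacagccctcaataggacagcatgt
Oat, minus strand, chr7:132576399-132576648: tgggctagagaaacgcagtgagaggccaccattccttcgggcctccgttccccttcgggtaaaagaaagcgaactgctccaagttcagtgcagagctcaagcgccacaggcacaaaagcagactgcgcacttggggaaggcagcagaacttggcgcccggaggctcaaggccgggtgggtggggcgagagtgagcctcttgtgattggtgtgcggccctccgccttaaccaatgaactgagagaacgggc

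In the whole 250 bases upstream of the start, Slc1a2 held 1 match to CTTTGAT, and no other matched gene held CTTTGAT or CTTTGTT. Of the 32851 promoters in the RefSeq table, 8.06% held one of these motifs. The core CTTTG, which is contained in both longer motifs, stood in the windows of Cyp2e1, Cyp1a2 and Slc1a2 and in none of the windows of Oat, Glul, Axin2 and Rnf43. It occurs in 48.6% of all promoters. The windows are unlike, since that of Glul and 1 of Rnf43 begin inside an annotated exon. The others have 168 to 250 bases before one. The core of the aryl hydrocarbon receptor motif, GCGTG, stood in 1 of the windows of Rnf43 and in 28.2% of all promoters. These matches describe the letters of short windows and say nothing about binding.

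Glul encodes glutamine synthetase, which joins ammonia to glutamate in the hepatocytes next to the central vein. It had 10907 reads and 149.6 FPKM (147 to 152) in the SRSF2-/- library, against 15718 reads and 213 FPKM (209.7 to 216) in the WT library. The ratio was 0.702 (0.685 to 0.720), a log2 ratio of -0.51 as deposited and -1.06 relative to all tested genes. Glul was thus the second most abundant of the 10 genes in each library, below 2-fold as deposited and just past it after centring. Measured against Cyp2e1 within the same library, which needs no scaling, Glul stood at 0.263 of the Cyp2e1 level in the SRSF2-/- library and at 0.110 in the WT library, a 2.39-fold higher quotient (2.33 to 2.46).

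Oat encodes ornithine aminotransferase, the mitochondrial enzyme that turns ornithine into a precursor of glutamate and proline. It had 4914 reads and 87.0 FPKM (84.6 to 89.5) in the SRSF2-/- library, against 1701 reads and 29.8 FPKM (28.4 to 31.2) in the WT library. The ratio was 2.92 (2.77 to 3.09), a log2 ratio of 1.52 and thus 0.96 relative to all tested genes, which is under 2-fold. Its log2 ratio was above that of 94.0% of the tested genes. Oat and Cyp1a2 changed places in the order of levels, Oat standing above Cyp1a2 in the SRSF2-/- library and below it in the WT library.

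Slc1a2 encodes the glutamate transporter GLT-1, known best from astrocytes and present in pericentral hepatocytes. It had 346 reads and 1.14 FPKM (1.02 to 1.27) in the SRSF2-/- library, against 1233 reads and 4.02 FPKM (3.796 to 4.25) in the WT library. The plain ratio was 0.284 (0.251 to 0.320), 3.52-fold lower. At these low levels the pseudocount matters, and the log2 ratio was -1.23 with a pseudocount of 1 FPKM but -0.55, inside 2-fold, with a pseudocount of 5 FPKM. Of the neural markers examined, Gfap was at 0.27 FPKM in the SRSF2-/- library and 0.08 FPKM in the WT library, and the 6 markers, of which 1 of 2 tested was higher and 1 lower (0 and 1 after centring), summed to 4.14 FPKM in the SRSF2-/- library and 2.56 FPKM in the WT library.

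**Figure D2:**
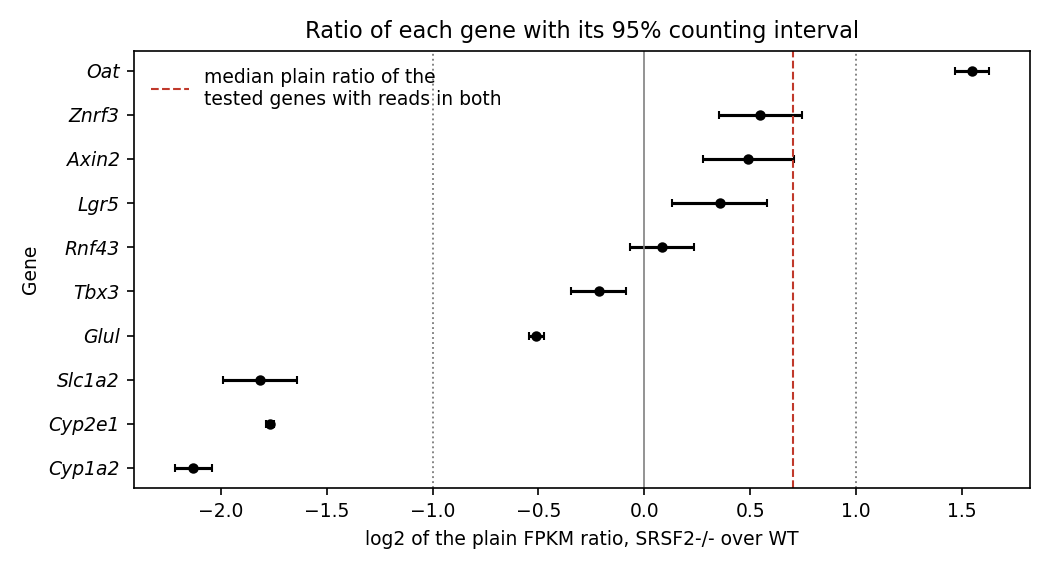
Plain FPKM ratio of each of the 10 genes, SRSF2-/- over WT, as log2, with its exact 95% counting interval. The dashed line is the median plain ratio of the 12362 tested genes with reads in both libraries (0.70 as log2) and dotted lines mark 2-fold. Cyp1a2, Cyp2e1 and Slc1a2 lie left of the lower dotted line, Oat lies right of the upper one, and the other 6 lie between.

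The feedback and receptor genes of the pathway lay close together. Axin2, a scaffold of the destruction complex whose transcription rises with beta-catenin activity, had 429 reads and 3.69 FPKM (3.35 to 4.06) in the SRSF2-/- library, against 309 reads and 2.63 FPKM (2.34 to 2.94) in the WT library, a ratio of 1.41 (1.21 to 1.63). Lgr5, a receptor for R-spondins, had 374 reads and 3.03 FPKM (2.73 to 3.36) in the SRSF2-/- library, against 296 reads and 2.37 FPKM (2.11 to 2.66) in the WT library, a ratio of 1.28 (1.10 to 1.496). In both genes the library labelled SRSF2-/- was slightly higher as deposited.

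Rnf43 and Znrf3 encode membrane ubiquitin ligases that remove Frizzled receptors from the cell surface and that R-spondins hold back. Rnf43 had 736 reads and 6.51 FPKM (6.05 to 7.001) in the SRSF2-/- library, against 703 reads and 6.15 FPKM (5.70 to 6.62) in the WT library. Its ratio of 1.06 (0.954 to 1.18) was not distinguishable from 1 at this depth. Znrf3 had 527 reads and 2.69 FPKM (2.47 to 2.93) in the SRSF2-/- library, against 365 reads and 1.84 FPKM (1.66 to 2.04) in the WT library, a ratio of 1.46 (1.28 to 1.67). The log2 ratios of the 4 genes ran from 0.07 to 0.38 as deposited, but from -0.48 to -0.18 relative to all tested genes, so their direction turns with the scaling. Their levels summed to 15.9 FPKM in the SRSF2-/- library and 13.0 FPKM in the WT library. Cyp2e1, Cyp1a2, Glul, Oat and Slc1a2 summed to 833 FPKM in the SRSF2-/- library and 2302 FPKM in the WT library. Most of this second sum was Cyp2e1, at 568.5 FPKM in the SRSF2-/- library and 1938 FPKM in the WT library. Oat, also part of it, went the other way.

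Tbx3, a T-box transcription factor of the hepatoblast and of pericentral hepatocytes, had 882 reads and 5.96 FPKM (5.57 to 6.36) in the SRSF2-/- library, against 1037 reads and 6.92 FPKM (6.50 to 7.35) in the WT library. Its ratio was 0.861 (0.786 to 0.943), a log2 ratio of -0.19 and thus -0.74 relative to all tested genes. In the order of levels, Rnf43 and Tbx3 had overlapping counting intervals in each library, as did Axin2 and Lgr5. Lgr5 and Znrf3 overlapped in the SRSF2-/- library and were apart in the WT library. Slc1a2 was the lowest of the 10 in the SRSF2-/- library and seventh in the WT library, above Axin2, Lgr5 and Znrf3.

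Upstream of these genes, ligands and R-spondins were mostly at low levels, with 5 of 16 listed genes past the filter. The counts of this list and of those that follow stand beside 19.2% higher and 2.95% lower among all tested genes as deposited, and 5.67% and 6.66% after centring. Of the 5, 2 reached 2-fold higher and 0 reached 2-fold lower levels (after centring, 1 and 0), with a median log2 ratio of 0.78. Rspo3, the R-spondin of the central vein endothelium, stood at 7.72 FPKM in the SRSF2-/- library and 2.83 FPKM in the WT library, a ratio of 2.73 (2.29 to 3.25). Wnt4 stood at 6.57 FPKM in the SRSF2-/- library and 0.542 FPKM in the WT library, a ratio of 12.1 (9.18 to 16.3). Wls, which escorts Wnt proteins to the cell surface, stood at 4.63 FPKM in the SRSF2-/- library and 2.27 FPKM in the WT library. Wnt2 and Wnt9b, the Wnt genes of liver endothelium, were looked up after the values were seen. Wnt2 had 1.96 FPKM in the SRSF2-/- library and 1.46 FPKM in the WT library, and Wnt9b, under the filter, had 110 reads in the SRSF2-/- library and 28 in the WT library.

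Of 10 tested receptors and co-receptors 0 reached 2-fold higher and 1 reached 2-fold lower levels (after centring, 0 and 2), and the median log2 ratio was 0.12. The lower one, the Frizzled receptor gene Fzd8, stood at 1.70 FPKM in the SRSF2-/- library and 11.8 FPKM in the WT library, 6.94-fold lower (5.84 to 8.29). Lgr4, the R-spondin receptor that joins it after centring, stood at 5.10 FPKM in the SRSF2-/- library and 8.59 FPKM in the WT library. Lrp5, a co-receptor of Wnt and the most abundant of the list, stood at 25.6 FPKM in the SRSF2-/- library and 25.5 FPKM in the WT library. Of 15 genes of the destruction complex and its neighbours 1 was at least 2-fold higher and 0 lower, as deposited and after centring, with a median log2 ratio of 0.46. That gene was Gsk3b, the kinase that marks beta-catenin for degradation, at 11.3 FPKM in the SRSF2-/- library and 2.97 FPKM in the WT library, a ratio of 3.79 (3.48 to 4.14). Ctnnb1, which encodes beta-catenin, stood at 69.5 FPKM in the SRSF2-/- library and 36.6 FPKM in the WT library, with a log2 ratio of 0.91 and thus 0.35 relative to all tested genes. None of the 15 tested TCF/LEF factors and nuclear cofactors reached 2-fold in either direction, as deposited or after centring, and their log2 ratios had a median of 0.45. Tle5, a corepressor-related gene and the most abundant of them, stood at 165.6 FPKM in the SRSF2-/- library and 159 FPKM in the WT library, and the corepressor gene Ctbp2 at 3.38 FPKM in the SRSF2-/- library and 1.31 FPKM in the WT library.

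Of 6 tested secreted antagonists 2 reached 2-fold higher and 1 reached 2-fold lower levels (after centring, 0 and 2), around a median log2 ratio of 0.43. Notum, a secreted enzyme that inactivates Wnt and is itself a Wnt target, stood at 2.14 FPKM in the SRSF2-/- library and 9.36 FPKM in the WT library, 4.37-fold lower (3.60 to 5.33). Sfrp1 stood at 3.43 FPKM in the SRSF2-/- library and 0.822 FPKM in the WT library, and Dkk3 at 3.88 FPKM in the SRSF2-/- library and 1.41 FPKM in the WT library. Of 12 tested genes on a list of other Wnt feedback and target genes 3 reached 2-fold higher and 3 reached 2-fold lower levels (after centring, 3 and 4), with a median log2 ratio of 0.00 as deposited and -0.56 relative to all tested genes. Myc, which many other signals also induce, stood at 24.2 FPKM in the SRSF2-/- library and 1.90 FPKM in the WT library. Lect2, a secreted hepatocyte protein, stood at 62.7 FPKM in the SRSF2-/- library and 213 FPKM in the WT library, 3.40-fold lower (3.20 to 3.61). Fgf21, a hormone that fasting and stress induce, stood at 16.9 FPKM in the SRSF2-/- library and 3.62 FPKM in the WT library. Some genes, such as Lect2 and Notum, stand on more than 1 of these lists.

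Pericentral genes outside the 10 had members on each side. Of 20 tested genes 4 reached 2-fold higher and 8 reached 2-fold lower levels (after centring, 3 and 10), with a median log2 ratio of -0.66, which is -1.21 relative to all tested genes. The share on the high side was close to the 19.2% of all tested genes, while 2.95% of all tested genes were lower. Cyp2c37 stood at 21.6 FPKM in the SRSF2-/- library and 151.6 FPKM in the WT library, 7.03-fold lower (6.59 to 7.52). On the high side, the glutathione transferase gene Gstm3 stood at 129 FPKM in the SRSF2-/- library and 5.47 FPKM in the WT library, and Cyp2a5 at 184 FPKM in the SRSF2-/- library and 13.6 FPKM in the WT library. Cyp3a11, the most abundant of them, stood at 839.5 FPKM in the SRSF2-/- library and 454 FPKM in the WT library. The Cyp2a, Cyp2c, Cyp3a and Gstm families hold near-identical members, and the sources used here do not say how reads shared among them were counted.

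Periportal genes, from the other end of the lobule, also lay on both sides. Of 20 tested genes 3 reached 2-fold higher and 6 reached 2-fold lower levels (after centring, 1 and 10), with a median log2 ratio of -0.45, which is -1.0 relative to all tested genes. Alb, the serum albumin gene and the most abundant of the list, stood at 25492 FPKM in the SRSF2-/- library and 50399 FPKM in the WT library, 1.98-fold lower. Sds, which encodes serine dehydratase, stood at 1.56 FPKM in the SRSF2-/- library and 39.9 FPKM in the WT library, and the histidine ammonia-lyase gene Hal at 3.20 FPKM in the SRSF2-/- library and 36.4 FPKM in the WT library. Hsd17b13, which encodes a lipid droplet protein, stood at 414 FPKM in the SRSF2-/- library and 97.1 FPKM in the WT library. A quotient of a pericentral and a periportal P450 gene, Cyp2e1 over Cyp2f2, was chosen after the values were seen. It was 43.7 in the SRSF2-/- library and 49.3 in the WT library, or 0.886 of the WT quotient (0.808 to 0.971). Cyp2f2 was itself 3.02-fold lower and is 1 of the 6 periportal genes called lower. Of the 20 tested periportal genes 7 had a log2 ratio above 0, among them Cps1 with a ratio of 1.16. The quotient therefore depends on the periportal gene chosen and does not describe the 2 lists.

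**Figure D3:**
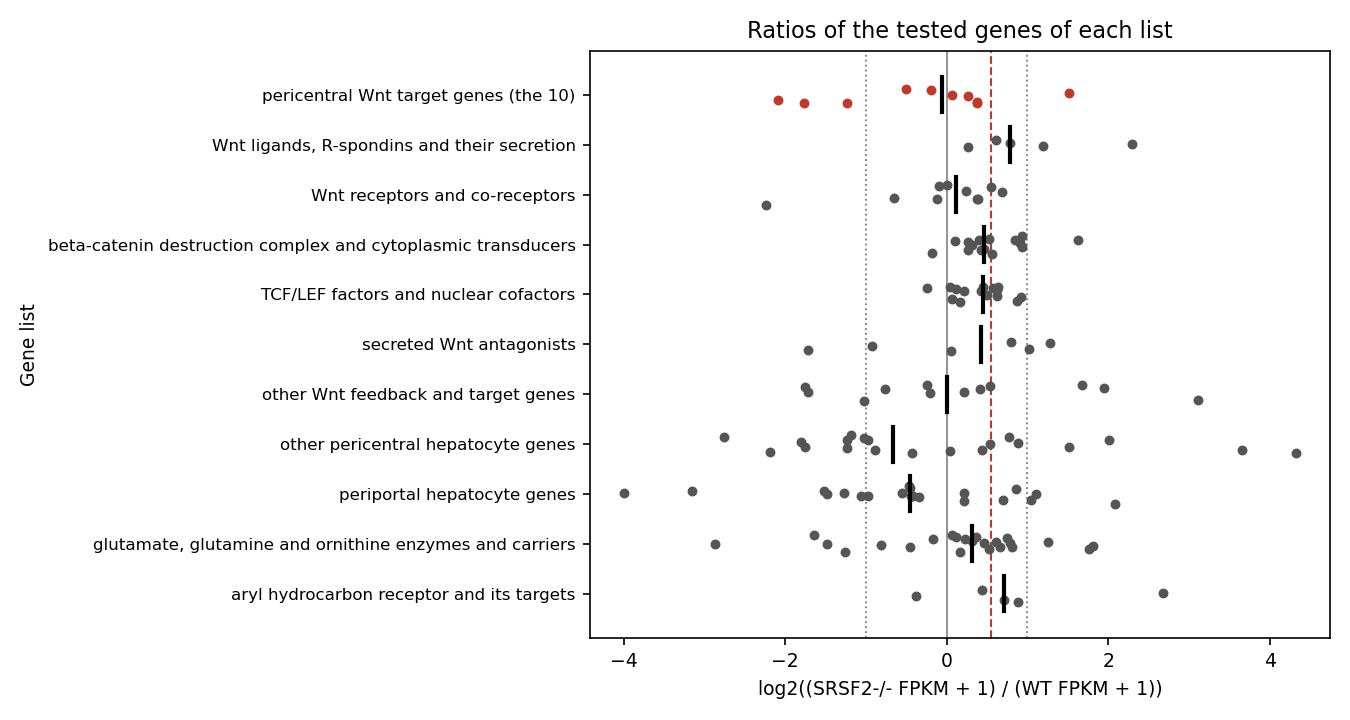
Log2 ratio, with a pseudocount of 1 FPKM, of every tested gene (points) of the 10 pericentral Wnt target genes (red, top row) and of 10 related lists, SRSF2-/- over WT. Short black bars are list medians, the dashed line is the median of all tested genes (0.55) and dotted lines mark 2-fold. The destruction complex and TCF/LEF rows lie mostly between the dotted lines, while the pericentral and periportal rows spread over both sides.

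Genes that share a substrate with Glul, Oat and Slc1a2 also lay on both sides. Of 23 tested enzymes and carriers of glutamate, glutamine and ornithine, 3 reached 2-fold higher and 4 reached 2-fold lower levels (after centring, 2 and 6), with a median log2 ratio of 0.31. Otc, the urea cycle enzyme that competes with Oat for ornithine, stood at 9.13 FPKM in the SRSF2-/- library and 73.1 FPKM in the WT library, 8.01-fold lower (7.32 to 8.77). Asns, the asparagine synthetase gene, stood at 29.9 FPKM in the SRSF2-/- library and 7.84 FPKM in the WT library, and Arg2, the mitochondrial arginase gene, at 3.28 FPKM in the SRSF2-/- library and 0.266 FPKM in the WT library. Glud1, the abundant glutamate dehydrogenase gene, stood at 390.1 FPKM in the SRSF2-/- library and 347.5 FPKM in the WT library.

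The aryl hydrocarbon receptor is another known route to Cyp1a2, and further routes were not examined. Of 5 tested genes of the aryl hydrocarbon receptor list 1 reached 2-fold higher and 0 reached 2-fold lower levels (after centring, 1 and 0), close to the 19.2% and 2.95% of all tested genes, and the median log2 ratio was 0.71 beside 0.55 for all tested genes. Nqo1, a quinone reductase that NRF2 also induces, stood at 23.9 FPKM in the SRSF2-/- library and 2.89 FPKM in the WT library. Arnt, the gene of the receptor's dimer partner, stood at 13.99 FPKM in the SRSF2-/- library and 7.14 FPKM in the WT library. Cyp1a1, looked up after the values were seen as the nearest relative of Cyp1a2, was under the filter, with 29 reads in the SRSF2-/- library and 8 in the WT library.

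Markers of liver cells and of neighbouring tissues differed between the libraries as well. Of 10 hepatocyte markers 1 was at least 2-fold higher and 3 lower (after centring, 1 and 6), with a median log2 ratio of -0.65 and a summed level of 42572 FPKM in the SRSF2-/- library and 84045 FPKM in the WT library. Of 12 endothelial markers 1 was higher and 0 lower (after centring, 0 and 0), with sums of 191 FPKM in the SRSF2-/- library and 155 FPKM in the WT library. Matrix cell markers were higher for 5 of 10 genes (1 after centring), with sums of 479 FPKM in the SRSF2-/- library and 186 FPKM in the WT library, bile duct markers for 4 of 7 (2 after centring), with 84.8 FPKM in the SRSF2-/- library and 44.3 FPKM in the WT library, and macrophage markers for 1 of 6 (0 after centring), with 359 FPKM in the SRSF2-/- library and 166 FPKM in the WT library. None of the matrix cell, bile duct or macrophage markers was 2-fold lower, as deposited or after centring. Erythroid markers reached 2-fold for 0 of 5 tested genes (0 higher and 2 lower after centring) and summed to 238 FPKM in the SRSF2-/- library and 416.5 FPKM in the WT library. The exocrine pancreas list summed to 589.8 FPKM in the SRSF2-/- library and 5.14 FPKM in the WT library, with 7 of 8 tested genes 2-fold higher (also 7 after centring) and 3 of its 10 genes at 0 reads in the WT library. The skeletal muscle list summed to 80.7 FPKM in the SRSF2-/- library and 0.158 FPKM in the WT library, with 7 of 7 tested genes 2-fold higher (6 after centring) and 6 of its 9 matched genes at 0 reads in the WT library. The part of these cells in the levels of the 10 genes was not tested.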

How the data were processed

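Liver RNA was sequenced from 1 SRSF2-/- and 1 WT library. Per the labels' protocols, RNA was extracted with Trizol and libraries were made by standard Illumina procedures. Bowtie 0.12.2 and mm9 are named in the submitters' processing notes. The sources used here do not state the counting program, annotation release, treatment of reads with several matches, strand or pooling. Per the file headers, the authors deposited a read count and an FPKM per RefSeq accession. The deposited counts sum to 22111605 (SRSF2-/-) and 22407743 (WT) reads, and 1 read was worth 1.01 times as much FPKM in the SRSF2-/- table.

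Symbols from RefSeq GRCm38.p6 and GENCODE M21 named 23419 of 26449 accessions, and values were summed per gene. Genes with at least 1 FPKM in either library were compared with a pseudocount of 1 FPKM and a 2-fold rule. The 10 genes and all lists were chosen with earlier results of these data known. Of each of the 10 pathway lists the text names the most abundant gene and 1 to 3 of those with the largest absolute ratio, and says where it adds others. The listed genes Igf1, Cd68, Csf1r and Myh2 had no matching accession name and are not analysed here, and 1 further listed gene is not reported here. Alternatives changed the pseudocount, filter, scaling, accession choice and size rule, 1 at a time, and the code was tested on simulated data. The tools were Python 3.11.15, scipy 1.17.1, numpy 2.4.6, matplotlib 3.10.9 and pandas 2.3.3.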

Additional observations from a re-analysis of the deposited data

How the results depend on the processing

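Cyp2e1, Cyp1a2, Slc1a2, Glul, Tbx3 and Oat kept their direction under every alternative that gave them a value. The count of lower genes among the 10 ran from 2 to 4 under the pseudocounts, filters and scalings. Centring gave 0 higher genes, a median of -0.61, and 708 higher and 831 lower genes among all tested. Scaling by a trimmed mean of M values, which lowered the SRSF2-/- FPKM by 0.72 on the log2 scale before the pseudocount was added, gave 0 higher genes and a median of -0.66, with 666 higher and 874 lower among all tested. Leaving the 20 most abundant genes out of the total gave a median of -0.35, with 1592 higher and 614 lower among all tested, and a filter of 5 FPKM, which leaves 6 of the 10 genes, also gave -0.35. Over all tested genes, a pseudocount of 0.1 gave 3797 higher, a pseudocount of 5 gave 786 higher and 232 lower, and TPM gave 3628 higher. The number of tested genes changed with the scaling. It was 14342 with TPM, 13100 without the 20 most abundant genes and 11626 with the trimmed mean. The other counts over all tested genes given here are out of 12477. A size rule of 1.5-fold gave 5914 higher and 687 lower among all tested. A rule of 4-fold gave 0 higher and 1 lower of the 10 genes and 344 higher and 94 lower among all tested. Axin2, Lgr5, Znrf3 and Rnf43 were above 0 as deposited and below 0 after centring or trimmed mean scaling (Rnf43 also without the 20 most abundant genes). A rule added after seeing the data counted genes whose whole interval of the plain ratio, without a pseudocount, passed 2-fold. It gave 1 higher and 3 lower of the 10 genes. Among the 12477 tested genes the same rule gave 2611 higher and 350 lower, against 2396 and 368 in the main setting. Because it also drops the pseudocount, its counts are not a stricter subset of the main calls. No paired analysis was possible because each genotype has 1 library, and no replicate could be left out.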

Other observations

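Quotients of genes within a library need no scaling, and a few were formed after the values were seen. Oat, which uses ornithine in the mitochondrion as Otc does, stood at 9.53 times the Otc level in the SRSF2-/- library and at 0.407 times in the WT library, a 23.4-fold higher quotient (21.1 to 26.0, counting error only). Gls2, the liver glutaminase of periportal hepatocytes, opposes Glul, and the quotient of Glul over Gls2 was 5.86 in the SRSF2-/- library and 2.91 in the WT library, 2.01-fold higher (1.89 to 2.14). Over Slc38a3, a glutamine carrier of the hepatocyte membrane, Glul stood at 1.37 in the SRSF2-/- library and 0.622 in the WT library. Glul itself was 1.42-fold lower in the SRSF2-/- library, and its quotients rose because Gls2 (2.87-fold lower) and Slc38a3 (3.14-fold lower) fell further. Over the hepatocyte marker Hnf4a, whose own ratio was 1.03, Glul stood at 1.605 in the SRSF2-/- library and 2.35 in the WT library. That is 0.683 of the WT quotient (0.659 to 0.708). This direction depends on the marker chosen. Of the 10 hepatocyte markers 3 had a log2 ratio above 0, and their median was -0.65, against -0.51 for Glul. Alb, with a ratio of 0.506, fell further than Glul, with 0.702, so a quotient of Glul over Alb was higher in the SRSF2-/- library. The Wnt targets Notum and Axin2 differed from each other, since their quotient was 0.581 in the SRSF2-/- library and 3.56 in the WT library, 6.14-fold lower (4.82 to 7.80). Oat over Cyp2e1 was 0.153 in the SRSF2-/- library and 0.0154 in the WT library, 9.97-fold higher (9.42 to 10.6). Each quotient describes 1 library per genotype and was not tested against the spread between animals.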
